A study of Mus musculus with 4 samples.

Results

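The replication-dependent histone genes are the clustered gene copies that supply most histone protein when a cell copies its DNA. They were taken here as every gene of the deposited tables whose symbol begins with Hist1h, Hist2h, Hist3h or Hist4h. The rule found 47 of the 17532 genes listed in either table, of which 39 were in the table for ACE+ cells, 40 in that for CD74+ cells and 32 in both. By class there were 4 linker histone genes (H1), 12 of H2A, 8 of H2B, 11 of H3 and 12 of H4. The family was selected on the measured level of Hist1h4h, an H4 gene seen to be higher with periostin in CD74+ cells, so values of that comparison are given as a description and carry no test.

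H2A, H2B, H3 and H4 are the core histones around which DNA is wound in a nucleosome, and H1 binds the linker DNA between nucleosomes. In dividing cells these genes are transcribed in S phase under NPAT, and their mRNAs end in a short stem-loop bound by SLBP, not in a poly(A) tail. A few of the genes also give longer, polyadenylated mRNAs in cells that have stopped dividing. The library kit named in the labels is, as background, one that selects RNA by its poly(A) tail, and how much tail-less stem-loop mRNA it captured was not measured.

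The study compared periostin with vehicle in each of a pair of sorted cell populations. The 4 groups were CX3CR1+ACE+ cells with periostin, CX3CR1+ACE+ cells with vehicle, CX3CR1+CD74+ cells with periostin and CX3CR1+CD74+ cells with vehicle, each 1 library. All came from the periosteum, the tissue layer on the outside of bone, of wild type male C57BL/6 mice at postnatal day 28, and were sorted for CD45 and CX3CR1 together with ACE or CD74. Sorted cells of every group were kept in medium with serum and 10 ng/ml M-CSF, and recombinant mouse periostin, a matrix protein, was given at 500 ng/ml or replaced by PBS for 24 h. The labels do not say how many animals a library represents. With 1 library per group, differences within a population had no replicate spread and no test across samples.

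The 47 genes lay mostly in clusters, 36 on chromosome 13, 8 on chromosome 3, 2 on chromosome 11 and 1 on chromosome 6 (build GRCm38, GENCODE M21). Of these genes 45 had a single exon, and their deposited lengths ran from 312 to 4374 bases with a median of 520. The stem-loop, a stem of 6 base pairs closed by a loop of 4 bases, was found in the annotated transcript of 33 members. The other 14 included Hist1h2bc and Hist2h2be, whose annotated transcripts run 745 and 2195 bases past the coding sequence without one. In 7 of the 14 the annotated transcript ends within a few bases of the coding sequence, so a stem-loop could not be found there. Only stems with all 6 pairs matched were searched for, so a member without a match need not lack a stem-loop. Stem-loops are shown for members that the values below turn on, with stem and loop in capitals and 5 bases on each side, to show that H4 genes differ in the stem from the H1, H2B and H3 genes.
Hist1h4h stem-loop: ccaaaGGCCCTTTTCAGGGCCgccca
Hist1h4c stem-loop: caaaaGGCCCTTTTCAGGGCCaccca
Hist2h4 stem-loop: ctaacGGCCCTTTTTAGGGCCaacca
Hist1h1c stem-loop: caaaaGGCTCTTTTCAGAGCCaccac
Hist1h2bj stem-loop: ccaaaGGCTCTTTTCAGAGCCacgca
Hist1h3e stem-loop: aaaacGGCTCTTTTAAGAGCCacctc
The stem-loop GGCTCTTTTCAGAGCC was the most common, in 18 members and in no H4 gene. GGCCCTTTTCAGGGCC was found in 6 members, all of them H4 genes. In Hist1h4h the annotated transcript ended 46 bases after the stem-loop, whereas in Hist1h1c it went on for 840 bases and in Hist2h4 for 1257. The hexamer AATAAA, the usual poly(A) signal, followed the coding sequence in 13 members, among them Hist1h1c, Hist1h2bc, Hist3h2a, Hist2h3c1 and Hist2h2be. It was not found after the coding sequence of Hist1h4h.

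Promoters of 38 members could be matched to RefSeq (GRCm38.p6) and were searched on both strands from 250 bases before to 10 bases after the annotated start. The promoters below span the 140 bases before the start and the first 10 bases after it, and are shown because Hist1h4h is the member with the largest change and Hist1h4c and Hist1h4i are the other H4 genes with at least 5 CPM. Capitals mark GGTCCG, the core of the site known as site II in H4 promoters, where HINFP binds, the CCAAT box and TATAAA.
Hist1h4h promoter, chr13:23530904-23531053, plus strand: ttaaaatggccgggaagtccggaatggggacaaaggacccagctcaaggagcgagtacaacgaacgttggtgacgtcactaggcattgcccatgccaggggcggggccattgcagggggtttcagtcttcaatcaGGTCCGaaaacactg
Hist1h4c promoter, chr13:23698449-23698598, minus strand: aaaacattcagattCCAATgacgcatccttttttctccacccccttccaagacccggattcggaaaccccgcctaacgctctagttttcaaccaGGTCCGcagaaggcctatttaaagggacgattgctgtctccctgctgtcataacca
Hist1h4i promoter, chr13:22041353-22041502, minus strand: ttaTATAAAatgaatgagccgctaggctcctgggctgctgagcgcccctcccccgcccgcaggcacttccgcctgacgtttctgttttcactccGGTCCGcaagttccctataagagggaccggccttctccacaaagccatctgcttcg
GGTCCG stood in 9 of 11 matched H4 promoters and in 1 of the other 27 members, against 7.06% of 27025 promoters of all genes. CCAAT was found in 3 of 11 H4 promoters and in 25 of the other 27 members, against 35.2% of all promoters. TATAAA was found in 19 of 38 member promoters, against 13.3% of all. The octamer ATTTGCAT was found in 3 of 8 H2A and 2 of 6 H2B promoters and in no H1, H3 or H4 promoter, against 1.64% of all. Motifs were counted separately even where their matches could overlap, and a match describes the sequence and not binding.

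Levels are read counts scaled by the authors, expressed per 1000000 of the mean scaled total of the 4 libraries (CPM). Recovered reads came to 19798150 for ACE+ cells with periostin, 15471245 for ACE+ cells with vehicle, 11846312 for CD74+ cells with periostin and 16650349 for CD74+ cells with vehicle. The CD45 gene Ptprc was detected at 363 to 618 CPM and Cx3cr1 at 14.5 to 21.7 CPM. Cd74 had 1222 and 850 CPM in CD74+ cells with periostin and vehicle, and 552 and 531 CPM in ACE+ cells with periostin and vehicle. Ace was low, at 9.51 and 0.897 CPM in CD74+ cells and 2.80 and 2.76 CPM in ACE+ cells in the same order, so the ACE+ libraries did not carry more Ace RNA than the CD74+ periostin library. Markers of other cell types were also present, and 11 neutrophil genes summed to between 12452 and 27219 CPM and 12 cartilage genes to between 238.6 and 1278 CPM. In bulk RNA, fewer cells of a type and less RNA per cell cannot be told apart.

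Histone genes took a small share of the reads, led by a few members. The family summed to 325.8 CPM in ACE+ cells with periostin, 392.5 CPM in ACE+ cells with vehicle, 357.1 CPM in CD74+ cells with periostin and 298.8 CPM in CD74+ cells with vehicle. As a share of each library's own unscaled reads, a separate measure, the family made 0.0335%, 0.0404%, 0.0336% and 0.0300% in the same order. Between 72.7% and 87.6% of the histone reads of a library came from Hist1h1c, Hist1h2bc, Hist3h2a and Hist2h3c1, and Hist1h1c together with the other H1 genes gave between 50.3% and 66.4%. Only 9 members reached 5 CPM in any library, and the other 38 stayed at or below 4.78 CPM, with medians of 6.5 to 14.5 reads per library. Between 3 and 4 members had 0 reads in each library, which allows up to 3 reads, or 0.147 to 0.269 CPM.

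**Figure D1:**
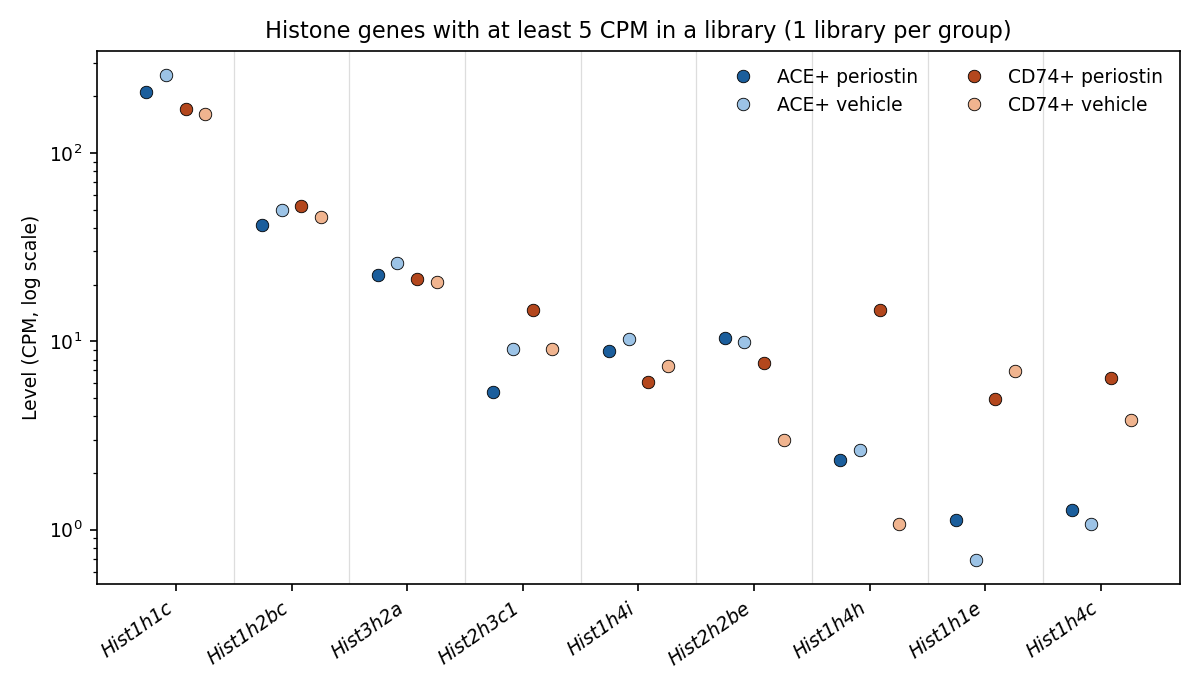
Level of the 9 histone genes with at least 5 CPM in a library, on a log axis in CPM, with 1 point for each of the 4 libraries. Hist1h1c lies highest in all 4, and the points of Hist1h4h are the most spread, with 14.7 CPM in CD74+ cells with periostin and 1.08 CPM in CD74+ cells with vehicle.

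Among linker histones, Hist1h1c (chromosome 13, 23738808 to 23740367) had 209.9 and 259 CPM in ACE+ cells with periostin and vehicle, and 172 and 161 CPM in CD74+ cells with periostin and vehicle. It encodes H1.2, one of the main H1 proteins of somatic cells, and was the most abundant member also per length, at a mean of 128.5 CPM per kilobase. Hist1h1e, which encodes H1.4, had 1.13 and 0.690 CPM in ACE+ cells and 4.93 and 7.0 CPM in CD74+ cells, again with periostin first and vehicle second. Unlike Hist1h1c it was higher in both CD74+ libraries than in either ACE+ library. In the annotation its transcript of 1930 bases overlaps exons of Hist1h2be over 25.7% of its length on the same strand, at its 3′ end. The deposited length of Hist1h1e was 748 bases, so the model used for counting was shorter and may not hold that overlap.

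For the H2A and H2B classes the level rested mainly on Hist3h2a and Hist1h2bc, with deposited lengths of 2146 and 736 bases. Hist3h2a had 22.5 and 26.1 CPM in ACE+ cells with periostin and vehicle, and 21.4 and 20.8 CPM in CD74+ cells with periostin and vehicle. Hist1h2bc, which encodes an H2B, had 41.2 and 49.6 CPM in ACE+ cells with periostin and vehicle, and 51.9 and 45.6 CPM in CD74+ cells with periostin and vehicle. These genes differed little between libraries, and at means of 64.0 CPM per kilobase for Hist1h2bc and 10.6 for Hist3h2a they stood below Hist1h1c per length. Hist2h2be, an H2B gene whose polyadenylated mRNA is known from non-dividing cells, had 10.5 and 9.97 CPM in ACE+ cells with periostin and vehicle, and 7.72 and 2.99 CPM in CD74+ cells with periostin and vehicle. It was lowest in the CD74+ vehicle library, and no stretch of 50 bases of its transcript is shared with another gene.

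For H3, Hist2h3c1 had 5.40 and 9.10 CPM in ACE+ cells with periostin and vehicle, and 14.6 and 9.09 CPM in CD74+ cells with periostin and vehicle. The vehicle libraries of both populations had nearly the same level. All of its exonic sequence lies within Gm20634 on the same strand, so its reads may belong to either annotation. Of the H4 genes, Hist1h4i had 8.88 and 10.3 CPM in ACE+ cells with periostin and vehicle, and 6.10 and 7.35 CPM in CD74+ cells with periostin and vehicle. Hist1h4c had 1.28 and 1.07 CPM in ACE+ cells and 6.37 and 3.83 CPM in CD74+ cells, with periostin and vehicle in that order. Hist1h4c was higher in both CD74+ libraries than in both ACE+ libraries, and Hist1h4i was lower.

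Hist1h4h (chromosome 13, 23531050 to 23531519, plus strand, 1 exon) stood apart from the other H4 genes. It had 164 reads, or 14.7 CPM, in CD74+ cells with periostin and 18 reads, or 1.08 CPM, in CD74+ cells with vehicle. In ACE+ cells it had 48 reads, or 2.36 CPM, with periostin and 42 reads, or 2.64 CPM, with vehicle. The CD74+ periostin library alone was high, and the other 3 lay between 1.08 and 2.64 CPM. The fold of periostin over vehicle was 13.7 in CD74+ cells (95% counting interval 8.38 to 23.6) and 0.894 in ACE+ cells (0.578 to 1.39). Here and below, intervals are exact and describe the counting of reads alone. They hold no spread between cultures, and reads copied by PCR are not independent molecules.

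All 12 H4 genes encode the same 103-residue protein, and their reads can be assigned only where the copies differ in sequence. Of the 50-base stretches of the Hist1h4h transcript 45.8% also occur in another annotated gene, and its coding sequence is closest to that of Hist1h4n, at 96.8% identity. Hist1h4n itself had 3.23 and 2.21 CPM in CD74+ cells with periostin and vehicle. Without Hist1h4h the H4 class summed to 29.96 CPM in CD74+ cells with periostin and 20.8 CPM with vehicle, a fold of 1.44 (1.24 to 1.68). With it the sums were 44.7 and 21.8 CPM, a fold of 2.05 (1.79 to 2.35). Within 60 kb of Hist1h4h lie 9 other members, and 7 of these were compared in CD74+ cells. Their changes were mixed, from a log2 change of 1.45 for Hist1h3e, 30.0 kb away, to −1.84 for Hist1h2bg, 39.9 kb away. The nearest member, Hist1h3g at 3.9 kb, was not compared, since it had 14 reads with periostin and 0 with vehicle in CD74+ cells. Hist1h2ad, also not compared, had 6 and 4 reads in the same order.

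In ACE+ cells the histone genes showed little change with periostin. Changes are log2 ratios after 1 CPM was added to both levels, for genes that reached 1 CPM in 1 of the libraries compared, and a gene was counted at 2-fold or more. Of the 39 listed members 19 passed that filter, and 1 was counted as higher and 0 as lower. Among all genes compared, 1.47% were higher and 1.30% lower by the same rule. The higher member was Hist3h2ba, which encodes an H2B, with 66 reads (3.24 CPM) with periostin and 11 reads (0.690 CPM) with vehicle, a fold of 4.69 (2.46 to 9.86) and a log2 change of 1.33. Hist3h2ba passed the filter only through the periostin library, where it is high. In CD74+ cells it had 10 reads with periostin and 14 with vehicle. The next largest change was −0.88 for Hist1h2bn, below the threshold. The median over the 19 members was −0.23, against 0.00 over all genes, and 6 of 19 had a positive change. The 3 most abundant members shared this direction, with folds of 0.810 (0.776 to 0.846) for Hist1h1c, 0.831 (0.753 to 0.916) for Hist1h2bc and 0.861 (0.752 to 0.986) for Hist3h2a. The family sum was 0.830 times the vehicle level (0.802 to 0.859), and the sum of the H3 genes 0.675 times (0.556 to 0.818).

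**Figure D2:**
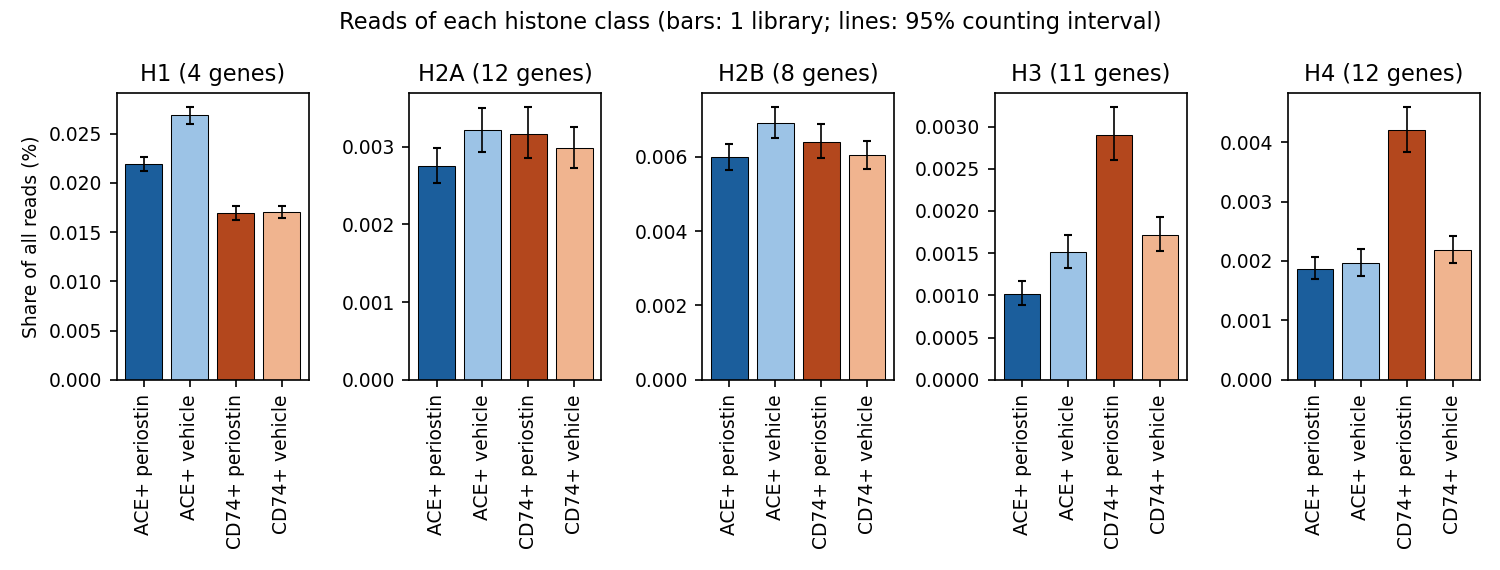
Reads of each histone class as a percent of all reads in the 4 libraries, with exact 95% binomial intervals as lines. Each panel has its own axis, and H3 and H4 are highest in CD74+ cells with periostin, at 0.00290% and 0.00420%.

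In CD74+ cells the class sums with periostin were set against those with vehicle, with no test between classes. The H4 sum was 2.05 times the vehicle level, or 1.44 times (1.24 to 1.68) without Hist1h4h, the gene the family was chosen by. The H3 sum was 1.81 times (1.54 to 2.12), while H1 was 1.06 times (0.999 to 1.12), H2A 1.14 times (0.990 to 1.30) and H2B 1.13 times (1.03 to 1.24). Of 40 listed members 35 passed the filter, and 5 were counted as higher and 2 as lower. Among all genes compared in CD74+ cells, 6.69% were higher and 5.25% lower by the same rule. The 5 members make 14.3% of those compared and include the gene that prompted the choice of the family. Of the 5 only Hist1h4h and Hist2h2be reached 1 CPM in both libraries. The rest, and the 2 lower members, passed the filter only through the library where they are high, so their counts support no difference. The median over members was 0.39 against 0.02 over all genes, and 26 of 35 were positive.

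Besides Hist1h4h the higher members were Hist2h4, Hist1h3e, Hist1h2bj and Hist2h2be. Hist2h4, an H4 gene of the chromosome 3 cluster, had 37 reads (3.32 CPM) with periostin and 7 reads (0.419 CPM) with vehicle, a fold of 7.93 (3.49 to 21.1). Hist1h3e had 41 reads (3.68 CPM) with periostin and 12 reads (0.718 CPM) with vehicle, a fold of 5.13 (2.64 to 10.7). Hist1h2bj had 35 reads (3.14 CPM) with periostin and 10 reads (0.598 CPM) with vehicle, a fold of 5.25 (2.55 to 11.9). These counts are small, and only Hist2h4 among the 3 has a transcript that other genes hardly share, with 1.01% of its 50-base stretches found elsewhere, against 73.4% for Hist1h3e and 59.4% for Hist1h2bj. In ACE+ cells with periostin and vehicle, Hist2h4 had 6 and 8 reads, Hist1h3e 13 and 22, and Hist1h2bj 0 and 16. Hist2h2be had 86 reads with periostin and 50 with vehicle in CD74+ cells, a fold of 2.58 (1.80 to 3.73), and with a log2 change of 1.13 was the member just inside the threshold. Hist2h3b, at 0.95, lay just outside it.

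The lower members were Hist1h2bg and Hist1h2al. Hist1h2bg, an H2B gene, had 2 reads (0.179 CPM) with periostin and 54 reads (3.23 CPM) with vehicle, a ratio of 0.0556 (0.00656 to 0.211). Hist1h2al, which the annotation calls a processed pseudogene, had 7 reads with periostin and 46 with vehicle, a ratio of 0.228 (0.0870 to 0.509). In ACE+ cells with periostin and vehicle, Hist1h2bg had 27 and 28 reads and Hist1h2al 10 and 7. The lower pair in CD74+ cells includes 1 annotated protein-coding gene, and 49.7% of its 50-base stretches are shared with other genes.

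**Figure D3:**
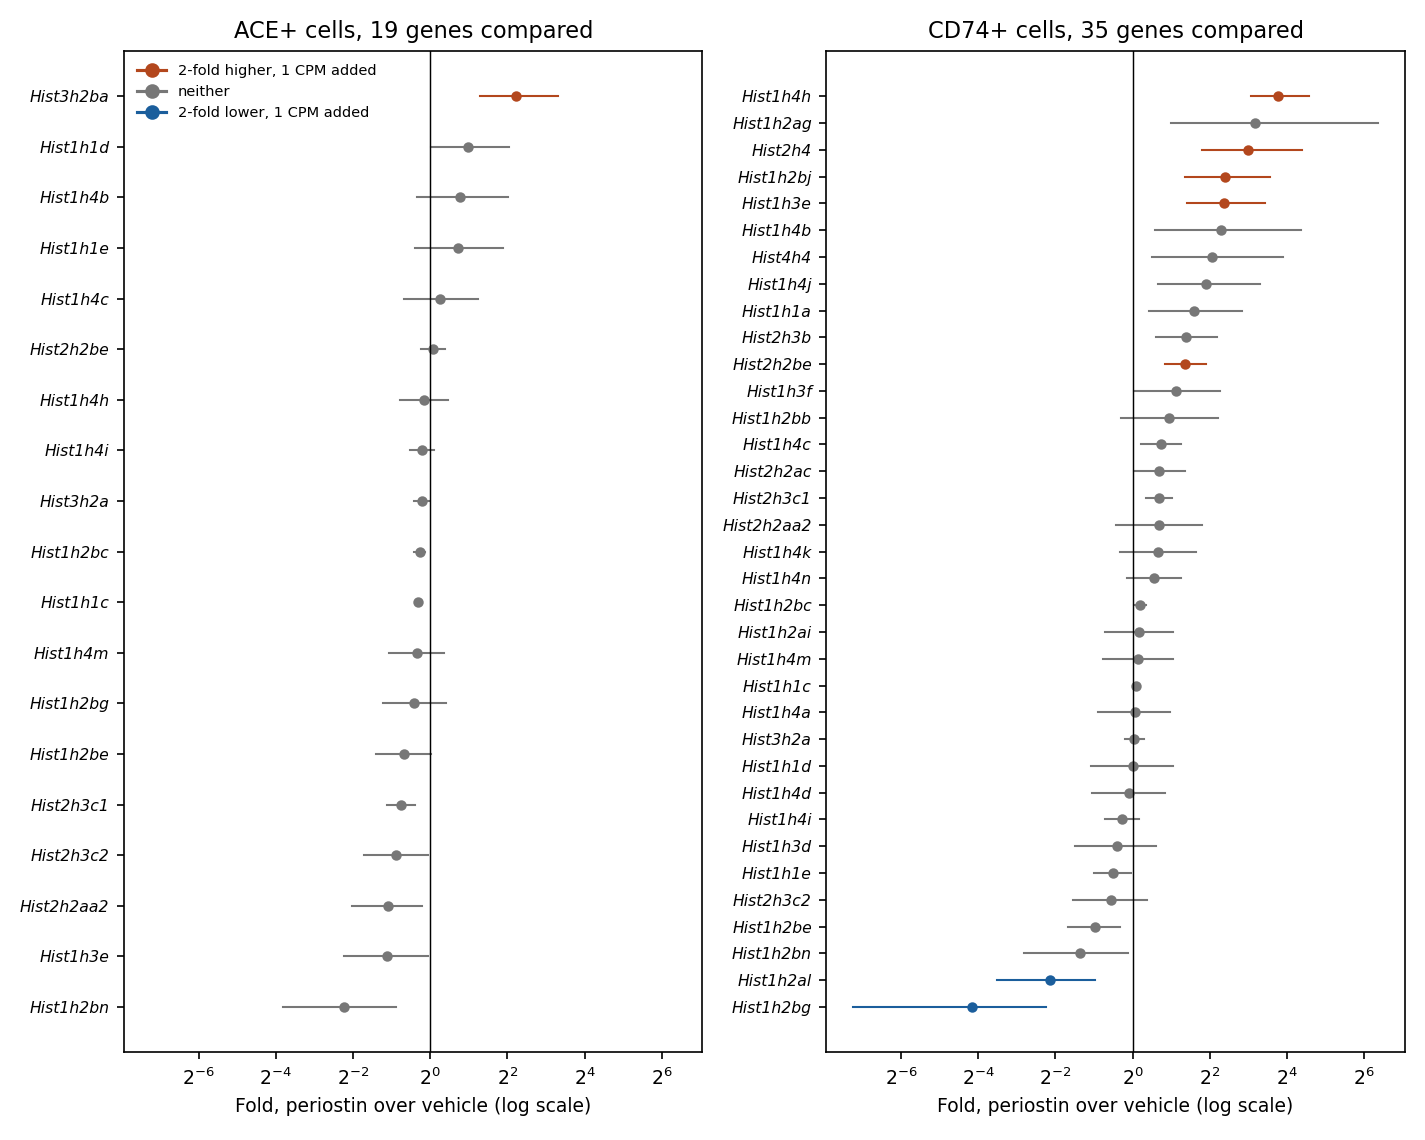
Fold of periostin over vehicle, on a log axis, for the 19 members compared in ACE+ cells and the 35 compared in CD74+ cells, with exact 95% counting intervals. Colour marks members counted at 2-fold after 1 CPM was added to both levels, which are 1 in ACE+ cells and 7 in CD74+ cells, and Hist1h4h has the highest fold in CD74+ cells.

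Gene length moved with the change in CD74+ cells. Over all genes in the shortest decile of deposited length, up to 665 bases, the median change was 0.44 and 20.8% were at least 2-fold higher, against −0.27 and 2.48% in the longest decile. Of the 35 members 20 fell in the shortest decile, and there their median was 0.39 and 2 of 20 were higher. In the next decile 8 members had a median of 0.09, against 0.39 over all genes. With the median of genes of similar length taken off each change, the median over the 35 members turned to −0.06. Level moved with it too: among genes under 5 CPM in the higher library 17.4% were at least 2-fold higher, and 3 of 26 members at that level were. In ACE+ cells the shortest and longest deciles differed less, with medians of 0.06 and −0.04. Hist1h4h, with a log2 change of 2.92, lay far above the median of its length group, and why short genes were higher was not tested.

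**Figure D4:**
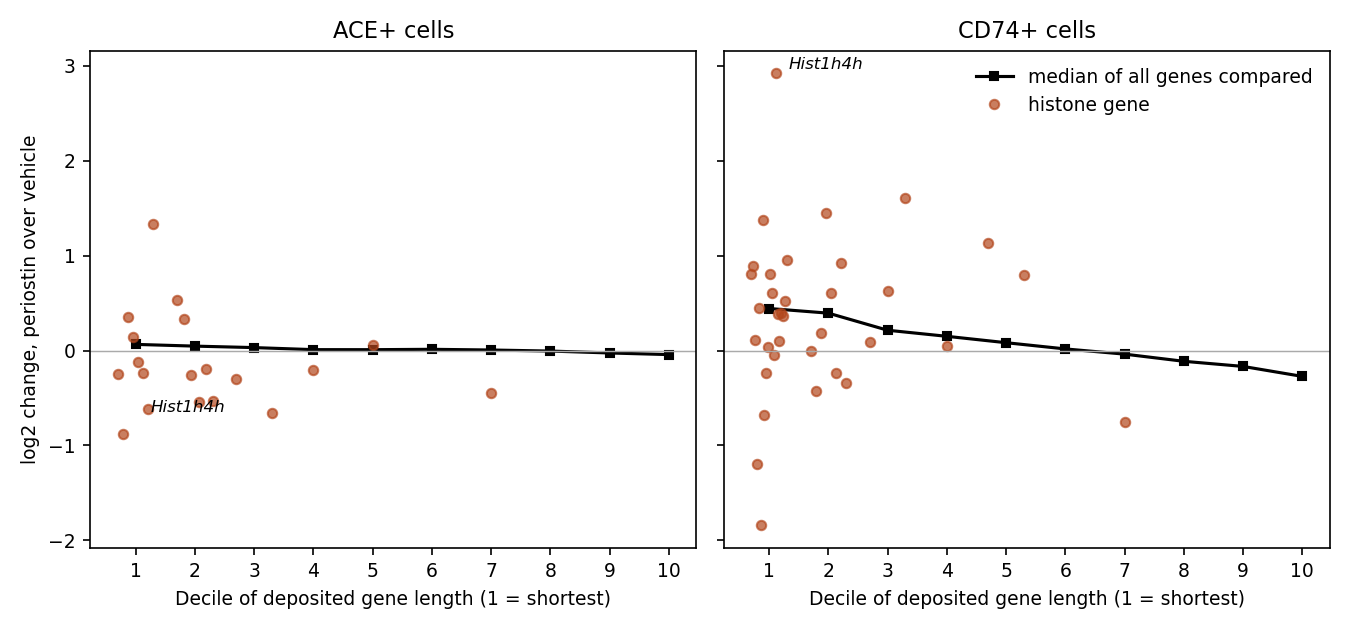
log2 change with periostin against the decile of deposited gene length, in ACE+ and CD74+ cells, with histone genes as circles and the median of all genes compared as squares. In CD74+ cells the line runs from 0.44 in the shortest decile to −0.27 in the longest, and most histone genes scatter around it while Hist1h4h lies at 2.92.

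The populations were compared at the level of single members where both tables list them. Of 18 members compared with periostin in both populations, 9 had changes of opposite sign, or 50%, against 46.4% of all 13129 genes. Hist1h4h was the only one of the 18 whose change differed by 4-fold or more between populations, at 3.04 on the log2 scale for CD74+ minus ACE+, and 1.47% of all genes did so. Among the 18, Hist1h3e followed at 1.98, with changes of 1.45 in CD74+ cells and −0.54 in ACE+ cells. Hist1h2bj was not among the 18, since it had 0 reads in ACE+ cells with periostin and 16 with vehicle. Its changes of 1.37 in CD74+ cells and −1 in ACE+ cells also differ by over 4-fold. The family was chosen on the change of Hist1h4h in CD74+ cells. These differences had no test, since each rests on 1 library per group.

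Without periostin, most members counted as higher in CD74+ than in ACE+ cells were under 1 CPM in the ACE+ library. Of 25 members compared 7 were at least 2-fold higher in CD74+ cells, against 3.64% of all genes, and 1 was lower, against 7.73%. The 7 were Hist1h1e, Hist1h2al, Hist2h2ac, Hist1h4d, Hist1h4a, Hist1h4c and Hist1h4n. Of these Hist1h4c alone also reached 1 CPM in the ACE+ library, at 1.07 CPM. The others passed the filter only through the CD74+ library, where they are high, so their count supports no difference. Among all genes under 5 CPM in the higher library 5.22% were higher, and 6 of 18 members at that level were. Hist1h1e was 10.1 times as high (5.46 to 20.9), Hist1h4c 3.59 times (2.08 to 6.54) and Hist2h2ac, an H2A gene with 39 reads in CD74+ cells and 5 in ACE+ cells, 7.44 times (2.93 to 24.2). Hist2h2be was the lower one, by 3.34 times (2.41 to 4.68). Hist1h1c went the same way with less change, at 0.622 times (0.592 to 0.653), and the family sum was 0.761 times the ACE+ level (0.733 to 0.790). The median over members was 0.31, against 0.00 over all genes, and 14 of 25 members were positive although the sum was lower. Short genes were more often higher here too: 9.38% of all genes in the shortest decile of deposited length were, and 14 of the 25 members, 6 of them higher, lay there. With the length trend removed the count of higher members was 7, against 3.57% of all genes. The counts by level and by length have the same limit from the filter, and support no difference either. Markers of other cells differed between the same libraries. Cartilage markers were higher in CD74+ cells for 10 of 11, summing to 1278 CPM in CD74+ and 238.6 CPM in ACE+ cells. Erythroid markers were lower for 7 of 8 (303.1 CPM in CD74+ and 1693 CPM in ACE+ cells), B-cell markers for 6 of 6 (25.41 and 628.5 CPM in the same order), osteoblast markers for 5 of 7 (191.6 and 735 CPM) and neutrophil markers for 5 of 11 (12452 and 22410 CPM). Mitosis genes summed to 575.7 CPM in CD74+ and 324.2 CPM in ACE+ cells, with 12 of 14 positive. The part of these differences in the histone values was not tested.

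With periostin, 12 of 29 members were at least 2-fold higher in CD74+ than in ACE+ cells, against 6.94% of all genes, and Hist3h2ba alone was lower, against 10.4%. In the shortest decile of deposited length, however, 22.7% of all genes were higher, and 16 of the 29 members lay there, 7 of them higher. Among all genes under 5 CPM in the higher library 14.4% were higher, and 9 of 21 members at that level were. Of the 12 only Hist2h3c1, Hist1h4h, Hist1h1e and Hist1h4c reached 1 CPM in the ACE+ library. The rest passed the filter through the CD74+ library alone, where they are high, so the count of 12 supports no difference. With the length trend removed 8 of 29 were higher, against 6.19% of all genes, and the median over members was 0.41. That count, that median and the counts by length decile and by level rest on the same filter. They support no difference either. By class the H3 sum was 3.13 times (2.62 to 3.74) and the H4 sum 2.45 times the ACE+ level (2.14 to 2.82), while H1 was 0.845 times (0.801 to 0.891). Among H4 genes with at least 5 CPM, Hist1h4h had the highest ratio, at 6.25 times (4.5 to 8.81), but without it the H4 sum was still 1.89 times (1.62 to 2.21). Hist1h1e, at 4.37 times (2.64 to 7.46), and Hist1h4c, at 4.99 times (3.15 to 8.16), were higher in CD74+ cells under both conditions. This comparison shares its CD74+ periostin library with the periostin comparison in CD74+ cells, so the values are not separate evidence. B-cell markers were lower in CD74+ cells for 5 of 7, with 10 genes summing to 25.03 CPM in CD74+ and 511.2 CPM in ACE+ cells with periostin, and Ebf1 at 0 in the CD74+ library. Erythroid markers were lower for 6 of 8 (537 and 1999 CPM in the same order), neutrophil markers for 4 of 11 (20073 and 27219 CPM) and osteoblast markers for 4 of 7 (193.6 and 560.2 CPM), and 1 cartilage marker was higher and 1 lower of 11 (969.2 and 797.6 CPM). Their part in the histone values was not tested.

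Most genes that make and process histone mRNA stayed within 2-fold with periostin. Slbp, whose protein binds the stem-loop, had 58.0 and 58.2 CPM in CD74+ cells with periostin and vehicle, and 53.3 and 57.8 CPM in ACE+ cells with periostin and vehicle. Npat, the coactivator of histone gene transcription, had 36.1 and 36.2 CPM in CD74+ cells and 36.1 and 35.6 CPM in ACE+ cells in the same order. Of 21 genes of histone transcription and 3′ processing, 20 were compared in CD74+ cells, and 0 were at least 2-fold higher or lower, where 6.69% and 5.25% of all genes were, with a median change of 0.02. Among these 20 the largest changes were 0.73 for Snrpf, a Sm protein gene, and −0.52 for Pou2f1, which encodes OCT1. In ACE+ cells 1 of 21 was higher, Zfp473, a subunit gene of the histone processing machinery, at 2.01 CPM with periostin and 0.314 CPM with vehicle. Zfp473 was also the gene not compared in CD74+ cells, since it had 35 reads (3.14 CPM) with periostin and 0 with vehicle. Its level with periostin there was 17.5 times the floor of 3 reads in the vehicle library, and the 95% counting interval of the fold began at 13.5. Of 8 genes of histone mRNA decay 0 passed 2-fold in either population, and Dcp2, a decapping enzyme gene, had the largest change, −0.72 in CD74+ cells. For ACE+ cells, 1.47% of all genes were higher and 1.30% lower by the same rule.

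Genes of the cell cycle moved in both directions with periostin in CD74+ cells. Of 35 S-phase genes 34 were compared in CD74+ cells, with a median of 0.07. The list summed to 1128 CPM with periostin and 1028 CPM with vehicle there. Of the 34, 2 were at least 2-fold higher and 0 lower, where 6.69% and 5.25% of all genes were. The higher ones were Cdc6, which loads the replicative helicase, and Gins1, a helicase subunit gene. Cdc6 had 9.87 CPM with periostin and 2.81 CPM with vehicle, and Gins1 had 6.82 CPM with periostin and 2.27 CPM with vehicle. The most negative were Pola1, of DNA polymerase alpha, at −0.90, and Uhrf1, a methylation maintenance gene, at −0.86. In ACE+ cells 0 of 35 passed 2-fold, where 1.47% of all genes were higher and 1.30% lower, and the median was −0.07. Of 14 mitosis genes 1 was higher in level with periostin in CD74+ cells, Ube2c, and 13 were lower in level. Bub1 alone of these was at least 2-fold lower, where 5.25% of all genes were. Mki67, the gene of the proliferation marker Ki-67, had 149 and 229.6 CPM in CD74+ cells with periostin and vehicle, and 93.9 and 72.7 CPM in ACE+ cells with periostin and vehicle. Top2a, of topoisomerase II alpha, had 74.5 and 83.0 CPM in CD74+ cells and 59.6 and 52.4 CPM in ACE+ cells in the same order. The median over mitosis genes was −0.43 in CD74+ cells and 0.12 in ACE+ cells. In CD74+ cells the mitosis list summed to 415.8 CPM with periostin and 575.7 CPM with vehicle. Medians of these lists were not adjusted for gene length, and the part of the cell cycle in the histone values was not tested.

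Markers of other cells also moved with periostin. By the same rule 6.69% of all genes were higher and 5.25% lower in CD74+ cells, and 1.47% and 1.30% in ACE+ cells. In CD74+ cells 4 of 8 compared erythroid markers were at least 2-fold higher, and the list summed to 537 CPM with periostin and 303.1 CPM with vehicle, with Epb42 at 0 with periostin. Of 11 neutrophil markers 1 was higher and 1 lower, but 9 were positive, and they summed to 20073 CPM with periostin and 12452 CPM with vehicle. In ACE+ cells 7 of 10 compared cartilage markers were higher, and the list summed to 797.6 CPM with periostin and 238.6 CPM with vehicle. In CD74+ cells 1 of 11 cartilage markers was lower, Col10a1, at 6.01 CPM with periostin and 168.7 CPM with vehicle, and the list summed to 969.2 CPM with periostin and 1278 CPM with vehicle. Of 10 macrophage markers 1 was lower in CD74+ cells, and 0 passed 2-fold in ACE+ cells. In CD74+ cells 3 of 7 osteoblast markers were higher (193.6 CPM with periostin and 191.6 CPM with vehicle), 2 of 4 endothelial markers lower (173.7 and 231.5 CPM in the same order), 2 of 7 B-cell markers higher and 2 lower (25.03 and 25.41 CPM), and the 1 T- and NK-cell marker compared higher (5.92 and 2.21 CPM for the list). In ACE+ cells 2 of 11 neutrophil markers and 2 of 4 T- and NK-cell markers were higher, the neutrophil list at 27219 CPM with periostin and 22410 CPM with vehicle. Osteoblast, endothelial, B-cell and erythroid markers had 0 past 2-fold in ACE+ cells. Whether such cells contributed histone reads was not tested.

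A periostin effect common to both populations could be fitted, with population as a block, which leaves 1 degree of freedom. The test was edgeR's quasi-likelihood test with Benjamini-Hochberg adjustment, run on 13129 genes. Of these 0.107% passed an adjusted p of 0.05, 8 higher and 6 lower, and 0 of 18 histone members did. Hist1h4h alone had an unadjusted p under 0.05, at 0.0160, with an adjusted p of 0.623 in edgeR, and in DESeq2 0 members passed and 1 had an unadjusted p under 0.05. The fit counts a difference between populations as error, and Hist1h4h was higher in 1 of 2 populations. The result is not independent of the choice of the family.

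The authors' deposited enrichment sheets for genes taken as higher with periostin name many of these genes. In CD74+ cells the sheet names 21 members, which are the 21 with the highest deposited change among the 40 listed, and the lowest of these was 0.55 on the authors' log2 scale. Of those 21, 19 passed the filter here and 5 were at least 2-fold higher, with medians of 20.0 reads with periostin and 12.0 with vehicle. In the authors' deposited table for CD74+ cells, the term Histone H4 had 8 genes, a fold enrichment of 5.66 and a Benjamini adjusted p of 0.165. DNA replication-dependent nucleosome assembly had 14 genes, 13 of them members, a fold enrichment of 3.75 and an adjusted p of 0.0385 in the authors' deposited table. For ACE+ cells the authors' deposited table gives that term 8 genes, all members, a fold enrichment of 3.46 and an adjusted p of 0.976. The 14 members named there had medians of 14.5 reads with periostin and 5.0 with vehicle, and 4 of them passed the filter here. All of these genes are counted separately in the sheets, although 34 of the 47 members have a translation identical to that of another member.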

How the data were processed

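The authors deposited 1 table per cell population with a signal per gene and library, which proved to be counts of reads over a single scaling factor per column, and 100% of the deposited values were whole reads within 0.001 read. They also deposited a log2 fold change without pseudocount and sheets of annotation terms with an enrichment p-value and a fold ratio. The submitters' processing notes name HISAT2 and GRCm38, while their versions, how and on which strand reads were counted, and what was done with reads matching several genes are not given in the sources used. Copies with near-identical sequence and overlapping or antisense genes are therefore uncertain. Of the 47 members, 41 share a translation with another member or overlap an exon of another gene. A shared translation need not mean shared sequence, and 23 members share most of their 50-base stretches with another gene.

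The deposited scaling spans all 4 libraries. Values were divided by the mean column total, 15573211, and multiplied by 1000000. The tables list a gene only with at least 1 read in both libraries, and for 3134 genes in 1 table only, the missing reads were derived from the deposited mean within 0.0001 read. The plan had assumed counts, and scaled counts were used in their place. Changes used a pseudocount of 1 CPM, a filter of 1 CPM in the higher library and a 2-fold threshold, all without a p-value. As the count test, edgeR 4.0.16 with TMM factors called 14 genes and DESeq2 1.42.0 called 2. Other tools were R 4.3.3, Python 3.11.15 and scipy 1.17.1, and the scripts were tested on simulated data. Sequences came from GENCODE M21 transcripts and RefSeq promoters, and the annotated exon length equalled the deposited length for 28 of 47 members.

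Values in every library are given for members with at least 5 CPM in a library, and from other lists the 2 genes with the largest change in each direction could be named, with Slbp, Npat, Mki67 and Top2a. Other members are named where they were counted or neighbour a threshold. The members and gene lists were chosen with earlier results of these data known.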

Additional observations from a re-analysis of the deposited data

How the results depend on the processing

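The labels carry no replicate numbers and each group holds 1 library, so no fit could be blocked on replicate and no replicate left out. Only the common fit, with population as a block, pairs libraries. Shares of all genes under the same setting are in brackets. With a pseudocount of 0.1 CPM the members higher with periostin in CD74+ cells numbered 12 (10.6%) with a median of 0.62, 3 (3.9%) were lower in ACE+ cells, and for CD74+ against ACE+ cells 2 were lower under each condition (10.4% with vehicle and 12.8% with periostin), with medians of 0.57 with vehicle and 1.14 with periostin. With 5 CPM added the counts of higher members were 0 in ACE+ cells (0.129%), 1 in CD74+ cells (0.909%), and 1 each for CD74+ against ACE+ cells with vehicle (1.52%) and periostin (2.21%), the counts of lower members were 0 in the last 3 (1.51%, 3.49% and 5.31%), and the medians 0.15, 0.11 and 0.23. Without a filter the medians were −0.10 in ACE+ cells, 0.13 between populations with vehicle and 0.52 with periostin. At 5 CPM or more in the higher library 0 members were higher in ACE+ cells (0.657%), 2 higher (3.95%) and 0 lower (4.95%) in CD74+ cells with a median of 0.19, 1 higher between populations with vehicle (3.33%), where the median turned to −0.32, and 3 higher (5.4%) and 0 lower (10.9%) with periostin, median 0.13. With the length trend removed the median in CD74+ cells turned to −0.0558, and between populations with periostin 2 members were lower (10.4%) and the median was 0.41. Total-count scaling gave 2 lower members there (12.6%).

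With members that share a translation or overlap an exon left out, few remained, and the median turned to 0.30 in ACE+ cells (4 members), −0.68 between populations with vehicle (3) and −0.25 with periostin (6). Higher members then numbered 1 of 5 in CD74+ cells (6.69%) with 0 lower (5.25%), 0 between populations with vehicle (3.64%) and 1 with periostin (6.94%). The histone share of reads became 0.0232%, 0.0279%, 0.0174% and 0.0168% in ACE+ periostin, ACE+ vehicle, CD74+ periostin and CD74+ vehicle. As alternatives chosen after seeing the data, genes left out of a table were included, which gave 1 lower member in ACE+ cells (1.36%), 8 higher in CD74+ cells (7.55%) and a median of 0.91 between populations with periostin, and members listed in both tables gave a share of 0.0319% in CD74+ cells with periostin. For the common fit, DESeq2 called 2 genes, no filter 0 and no block for population 0, against 14, and no histone member was called in any of them. In the settings run, the count of 435 genes at an unadjusted p under 0.05 in DESeq2 stands beside 876 in edgeR. Depth limits most members: 38 stayed under 5 CPM, where 1 read is 0.0491 to 0.0897 CPM.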

Other observations

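Replacement histones, which are made outside S phase from polyadenylated mRNAs, had a higher summed level than the clustered genes in these libraries. The kit selects RNA by its poly(A) tail and its capture of tail-less mRNA was not measured. The sums therefore do not give the relative abundance of the 2 kinds of mRNA in the cells. The 11 measured summed to 2156 CPM in ACE+ cells with periostin and 2382 CPM with vehicle, and to 2826 CPM in CD74+ cells with periostin and 2268 CPM with vehicle. None of the 11 passed 2-fold in either population, where 1.47% and 6.69% of all genes were higher. In CD74+ cells 9 of 11 had a positive change, with a median of 0.22. H2afj, an H2A variant gene, had 168.7 CPM with periostin and 99.4 CPM with vehicle there, and H1f0, the linker histone of non-dividing cells, 57.9 and 41.6 CPM in the same order. H3f3b, which encodes H3.3, had 1281 CPM with periostin and 945.9 CPM with vehicle in CD74+ cells, and 668.7 and 725.4 CPM in ACE+ cells in the same order.

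Of 14 histone chaperone genes 0 passed 2-fold with periostin in either population, where 6.69% of all genes were higher and 5.25% lower in CD74+ cells and 1.47% and 1.30% in ACE+ cells. In CD74+ cells 3 were positive and the median was −0.15, with Asf1b, which hands H3 and H4 to the replication fork, at 14.3 CPM with periostin and 24.2 CPM with vehicle, and Chaf1a, of the chromatin assembly factor, at 13.6 and 19.8 CPM in the same order. In ACE+ cells 6 were positive and the median was −0.01.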
